A study of Rattus norvegicus with 4 samples.

Results

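The circadian clock genes measured here are 5 of the 26313 Ensembl rat genes listed for each sample: Arntl (ENSRNOG00000014448), Per1 (ENSRNOG00000007387), Per2 (ENSRNOG00000020254), Dbp (ENSRNOG00000021027) and Nr1d1 (ENSRNOG00000009329). They were chosen as known clock genes, by identifier and not by a rule on their measured values. Earlier results of these data were known when they were chosen. RNA-Seq was done on 2 samples of thoracic aorta (AO1 and AO2), a conduit artery, and 2 samples of the small mesenteric arterial arcade (MA1 and MA2), which holds resistance arteries, all from untreated adult male Sprague-Dawley rats, 12 weeks old. One rat gave both AO1 and MA1, another gave AO2 and yet another MA2, so 3 rats gave the 4 samples. The hour at which each rat was killed, and the light cycle it was kept on, are not given in the sources used here. Whole arteries were homogenized, so a lower level of an mRNA can come from fewer cells of a type or from less mRNA per cell, and these cannot be told apart.

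The circadian clock is a feedback loop of transcription that runs in nearly every cell, vascular smooth muscle and endothelium included. The factor encoded by Arntl (also Bmal1) pairs with CLOCK and activates genes that carry E-boxes, among them Per1, Per2, Nr1d1 and Dbp. PER1 and PER2 repress that activator. NR1D1 (REV-ERB alpha) represses Arntl through ROR elements. DBP is an output factor that binds D-boxes. In tissues with a running clock Arntl mRNA peaks at the opposite time of day to the E-box genes, and Nr1d1 and Dbp mRNAs usually peak somewhat before those of the Per genes.

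To show which of these elements lie next to the genes measured, the 250 bases before each transcription start that RefSeq gives on GRCr8 were searched on both strands for the letters CACGTG (E-box), CACGTT (a variant E-box), TTATGTAA (D-box) and AGGTCA (the half-site of a ROR element). All 5 genes matched by symbol or synonym, Nr1d1 with 2 start sites. The windows that hold a match are printed 5′ to 3′ on the strand of the gene, with the matched letters in capitals. They are Arntl at chr1:176766078-176766327 (plus strand), Per2 at chr9:99496994-99497243 (minus strand), and Nr1d1 at chr10:84231813-84232062 and chr10:84229455-84229704 (both minus strand).
Arntl: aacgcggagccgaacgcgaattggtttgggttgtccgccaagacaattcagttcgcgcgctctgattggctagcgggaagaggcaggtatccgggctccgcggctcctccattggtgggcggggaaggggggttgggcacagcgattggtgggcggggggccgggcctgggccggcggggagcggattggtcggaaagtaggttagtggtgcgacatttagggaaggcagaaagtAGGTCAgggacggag
Per2: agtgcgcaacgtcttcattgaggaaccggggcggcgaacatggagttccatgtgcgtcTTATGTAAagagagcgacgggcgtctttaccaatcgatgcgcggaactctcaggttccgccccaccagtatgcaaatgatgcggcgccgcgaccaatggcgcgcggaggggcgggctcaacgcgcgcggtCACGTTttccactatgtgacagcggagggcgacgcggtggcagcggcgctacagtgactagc
Nr1d1, start site 1: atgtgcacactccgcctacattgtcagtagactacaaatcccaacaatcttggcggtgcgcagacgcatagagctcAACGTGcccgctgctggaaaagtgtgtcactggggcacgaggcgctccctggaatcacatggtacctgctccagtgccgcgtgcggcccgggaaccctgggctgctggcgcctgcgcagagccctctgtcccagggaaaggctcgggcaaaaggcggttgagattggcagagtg
Nr1d1, start site 2: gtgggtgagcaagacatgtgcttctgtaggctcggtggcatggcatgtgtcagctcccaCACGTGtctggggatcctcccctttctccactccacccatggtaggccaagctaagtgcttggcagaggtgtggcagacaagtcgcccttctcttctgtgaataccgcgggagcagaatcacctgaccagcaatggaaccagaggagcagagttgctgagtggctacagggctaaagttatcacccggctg

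The Arntl window holds AGGTCA from base 15 to base 10 before the start, and 14.1% of the 33469 windows in the table hold it. The Per2 window holds CACGTT from base 62 to base 57 and TTATGTAA from base 192 to base 185, letters found in 4.07% and 0.828% of windows. At start site 1 of Nr1d1 the variant E-box lies on the other strand, as AACGTG, from base 174 to base 169. At start site 2 CACGTG lies from base 191 to base 186, and 5.59% of windows hold it. None of the 4 sets of letters is in the windows of Dbp and Per1, which says nothing of elements elsewhere in these genes. A match is a description of the sequence and not a binding site.

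The deposited values are RPKM, reads per kilobase of gene length, divided also by the size of the library. For comparisons between samples they were divided by median-of-ratios factors, and these are called scaled RPKM. The whole reads behind the RPKM could be solved from their steps, and between 72524719 and 82449451 reads lay on genes in a sample. The study's methods name mRNA length as the divisor, but for 3 of the 5 clock genes the lengths solved with the reads were near those of whole genes. They came to 4913 bp for Dbp, 6731 bp for Nr1d1 and 42168 bp for Per2, each within 10% of the length of the gene of that name in RefSeq. Per1 solved to 8897 bp, 60.1% of the 14803 bp in RefSeq, or 120.2% with double the reads. Arntl solved to 48921 bp, 49.7% of its length there. The reads given for these 2 genes are therefore less certain than those of the others, while their RPKM and their ratios between samples do not depend on the solved length. Where introns are counted in the length, RPKM understates the level per length of mRNA, so the levels of the 5 genes are not compared with each other. The identifiers are not paired with symbols in the files, so the other clock genes, and markers by which the tissue labels could be checked, are not reported here.

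The sample that stood apart in the clock genes was MA2. It had the highest level of Arntl and the lowest levels of Per1, Per2 and Dbp of the 4 samples. Over the 5 genes together AO1, AO2 and MA1 differed less from each other. The share of all genes that were highest or lowest in MA2 was not taken. Over the 13788 genes for which each sample had at least 50 reads, MA2 was also farther than MA1 from both AO samples. The root mean square log2 differences from AO1 and AO2 were 1.02 and 0.93 for MA2, and 0.90 and 0.81 for MA1. The study reported more variability between its MA samples than its AO samples, and held dissection and small sample size to be the likely source. It also found some skeletal myogenic factors in MA2 alone, at a very low level, and proposed slight contamination by skeletal muscle. Whether either bears on the clock genes was not tested.

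Arntl, the activator, was at 0.0270 and 0.0201 scaled RPKM in AO1 and AO2, and at 0.0354 and 0.162 in MA1 and MA2. These values rest on 94 reads in AO1 (95% exact Poisson interval 76.0 to 115.0), 77 in AO2 (60.8 to 96.2), 176 in MA1 (151.0 to 204.0) and 818 in MA2 (762.9 to 876.0). The intervals cover counting error only. The solution with the fewest reads was taken. With double the reads the solved length would be 97842 bp, close to the 98520 bp of the gene in RefSeq, so the reads of Arntl may be too few by a common factor, which leaves the ratios between samples as they are. Both MA samples were above both AO samples, but MA1 lay nearer to the AO samples than to MA2. Of the 7203 genes tested between the tissues, a set without Arntl, 21.9% had both MA samples above both AO samples.

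Per1, a repressor of the activator, was at 8.88 and 5.79 scaled RPKM in AO1 and AO2, and at 8.50 and 3.48 in MA1 and MA2. Per2, its paralog, had the same order, with 1.69 and 1.26 in the AO samples and 1.37 and 0.561 in the MA samples, replicate 1 first. For both genes the MA samples lay on either side of AO2, so the tissues overlapped. The reads ranged from 3192 to 7687 for Per1 and from 2436 to 5894 for Per2.

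Dbp, the output factor, was at 23.9 and 37.8 scaled RPKM in AO1 and AO2, and at 39.5 and 10.6 in MA1 and MA2. MA1 was the highest and MA2 the lowest of the 4 samples, and both AO samples lay between them. The reads of Dbp ranged from 5368 in MA2 to 19756 in MA1.

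Nr1d1, the repressor of Arntl, was at 15.2 and 20.4 scaled RPKM in AO1 and AO2, and at 22.3 and 25.1 in MA1 and MA2. It was the only one of the 4 E-box genes that was not lowest in MA2. Both MA samples were above both AO samples, on 7303 to 17437 reads, and 21.9% of the 7203 genes tested between the tissues likewise had both MA samples above both AO samples.

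**Figure D1:**
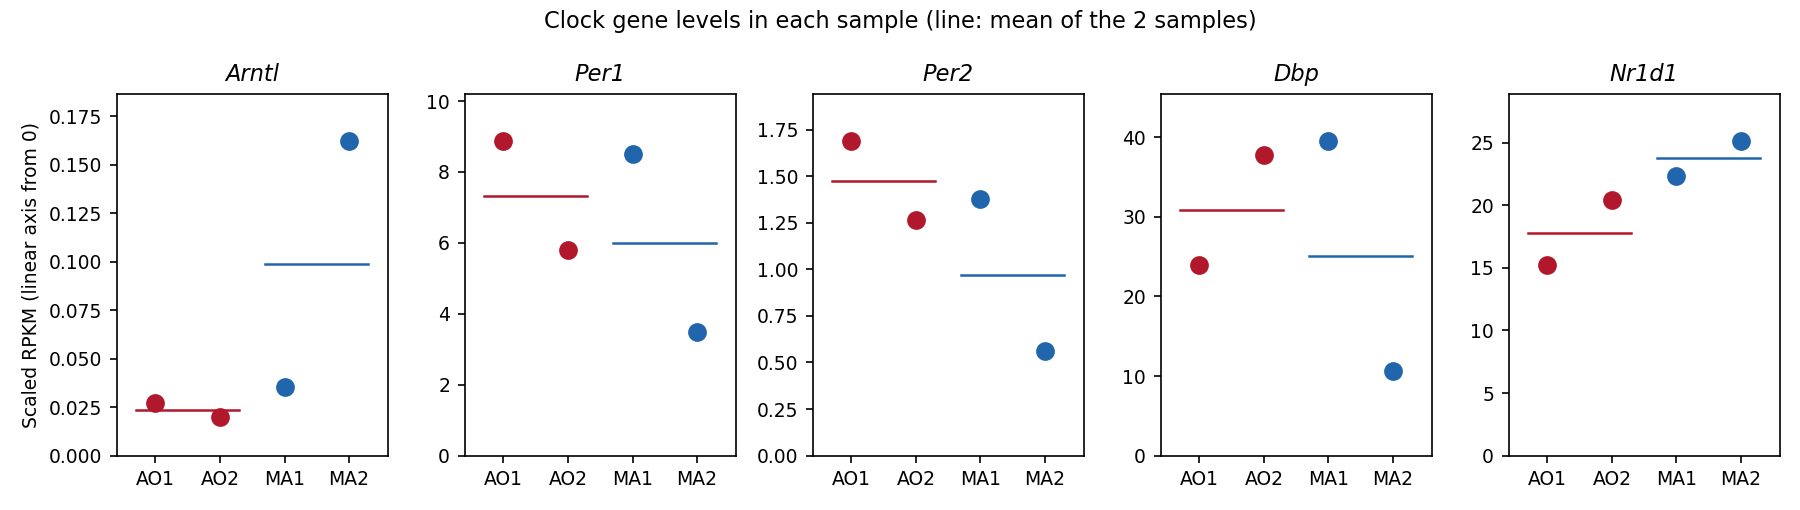
Scaled RPKM (y axis, linear and from 0, a separate scale for each gene) of the 5 clock genes in each of the 4 samples (x axis). Points are samples, red for AO and blue for MA, and lines are means of the 2 samples; MA2 is highest for Arntl at 0.162 and lowest for Per1, Per2 and Dbp.

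How far apart the samples of a tissue were was then set against all genes. With scaled RPKM and no pseudocount, 4 of the 5 clock genes were more than 2-fold apart between MA1 and MA2, compared with 11.0% of the 13788 genes for which each sample had at least 50 reads. Neither this scale nor this set of genes was planned. On the planned scale, with a pseudocount of 0.5 and given below, it was 2 of the 4 clock genes tested. Between AO1 and AO2, 0 of the 5 were more than 2-fold apart, compared with 8.14% of the same genes. These counts come from 1 pair of samples per tissue, MA1 and MA2 are different rats, and no test was made. Between tissues, 2 samples on each side leave 0.33 as the smallest two-sided p of an exact permutation test.

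Arntl was 4.59-fold higher in MA2 than in MA1 (counting interval 3.89 to 5.43), and 1.10% of the 13788 genes differed by at least as much. Dbp was 3.73-fold higher in MA1 (3.62 to 3.84), with 1.94% of genes at least as far apart. Per1 was 2.44-fold higher in MA1 (2.34 to 2.54) and Per2 2.45-fold (2.34 to 2.57), which 6.27% and 6.13% of genes matched or exceeded. Nr1d1 differed by only 1.13-fold, and was higher in MA2. The direction therefore differed between Arntl on one side and Per1, Per2 and Dbp on the other, with Nr1d1 near even.

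In the aorta the differences of Arntl, Per1, Per2 and Dbp were smaller than between the MA samples. That of Nr1d1 was larger, with 1.34-fold in the aorta and 1.13-fold between the MA samples. Of the 13788 genes, 55.9% were wider apart in MA than in AO. Per1 was 1.53-fold, Per2 1.34-fold and Arntl 1.34-fold higher in AO1, while Dbp was 1.58-fold and Nr1d1 1.34-fold higher in AO2. The Per genes thus went one way and Dbp and Nr1d1 the other, which was not the grouping seen between the MA samples. At least 16.9% of the 13788 genes were as far apart as each of these, and for Arntl the log2 counting interval, -0.03 to 0.88, included 0. That interval uses the solution with the fewest reads. With double the reads it would be narrower, so whether it includes 0 is not settled.

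On the scale used for the tests, log2(scaled RPKM + 0.5), the difference of MA1 minus MA2 was 1.85 for Dbp, 1.18 for Per1, 0.82 for Per2, -0.17 for Nr1d1 and -0.31 for Arntl. Here 2 of the 4 clock genes among the 7203 tested were more than 2-fold apart between the MA samples, and 6.76% of all those tested were. Between the AO samples it was 0 of the 4, and 4.65% of genes. The pseudocount is larger than every value of Arntl, so this scale hides most of its difference.

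**Figure D2:**
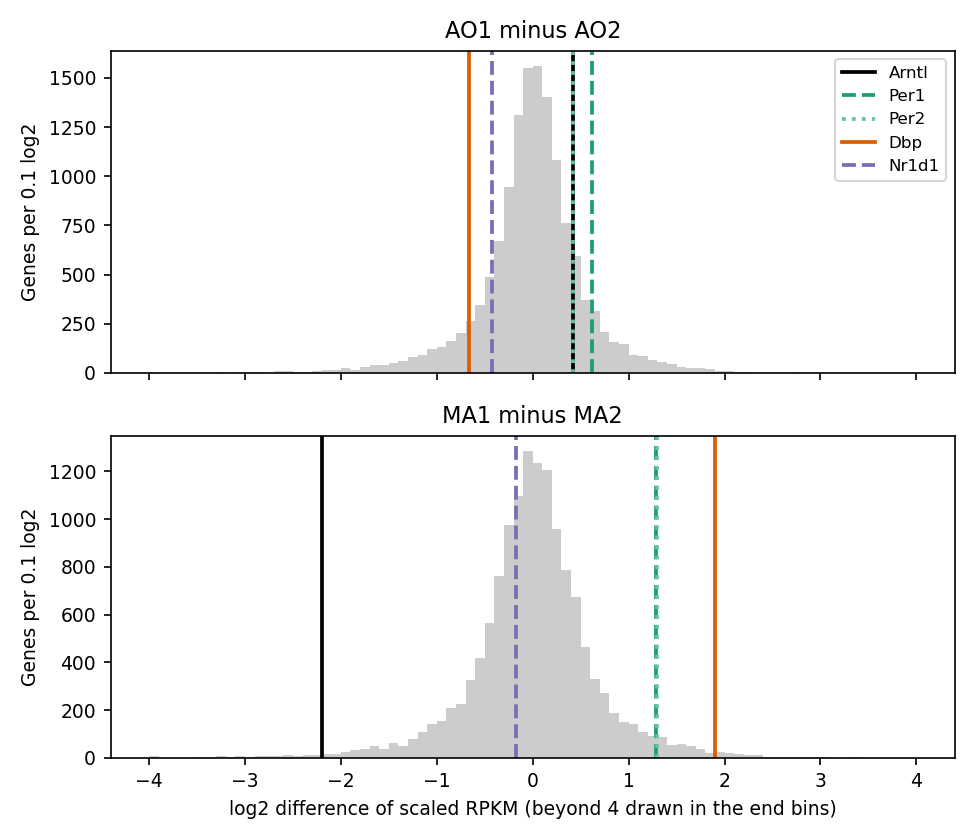
Number of genes (y axis, grey bars) by the log2 difference of scaled RPKM between the 2 samples of a tissue (x axis), over 13788 genes for which each sample had at least 50 reads, for AO above and MA below. Vertical lines mark the clock genes; in AO they lie between -0.66 and 0.62, and in MA Arntl lies at -2.20, Nr1d1 at -0.17, Per1 and Per2 at 1.29 and Dbp at 1.90.

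Ratios of clock genes within a sample do not depend on how the samples were scaled, and were taken from the RPKM as deposited. The ratio of Per2 to Arntl was 62.7 in AO1, 62.8 in AO2 and 38.9 in MA1, but 3.45 in MA2. The ratio of Per1 to Arntl was 329.4, 288.2 and 240.2 in the same 3 samples and 21.5 in MA2. The ratio of Dbp to Arntl was 887.2, 1882 and 1118, and 65.3 in MA2. All 4 ratios to Arntl, that of Nr1d1 included, were lowest in MA2, and they share Arntl as denominator, so they are not independent of each other. On the scale with a pseudocount of 0.5, or of 1, it was 3 of the 4 that were lowest in MA2, and the ratio without a pseudocount was added after seeing the data. The gap between MA2 and the next sample was 11.2-fold for Per1 and Per2, 13.6-fold for Dbp and 3.64-fold for Nr1d1. The size of each ratio depends on the gene lengths, and only its change between samples can be read.

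Of the 6 ratios without Arntl, MA2 stood apart in the 3 that share Nr1d1 as denominator. The ratio of Dbp to Nr1d1 was 1.57 in AO1, 1.86 in AO2 and 1.77 in MA1, and 0.422 in MA2. Per1 to Nr1d1 was between 0.284 and 0.583 in the other samples and 0.138 in MA2, and Per2 to Nr1d1 between 0.0615 and 0.111 in the others and 0.0223 in MA2. The ratios of Dbp to the Per genes put MA2 within the range of the other samples. Dbp to Per1 was 3.05 in MA2 and between 2.69 and 6.53 in the others, and Dbp to Per2 was 18.9 in MA2 and between 14.2 and 29.96 in the others. The ratio of Per1 to Per2 was 5.26 and 4.59 in the AO samples and 6.18 and 6.21 in the MA samples, so the tissues did not overlap. With 1.35-fold from lowest to highest, it varied least among the 10 pairs of clock genes, and the ratio of Dbp to Arntl, with 28.8-fold, varied most. Per1 to Arntl, Per2 to Arntl and Per2 to Nr1d1 were lower in both MA samples than in both AO samples. For the rest of the 10 pairs the tissues overlapped. The 10 pairs have genes in common, and the share of pairs of other genes whose tissues do not overlap was not taken. With 2 samples on each side, a separation gives a two-sided p of no less than 0.33 in an exact permutation test. The separations are therefore a description.

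**Figure D3:**
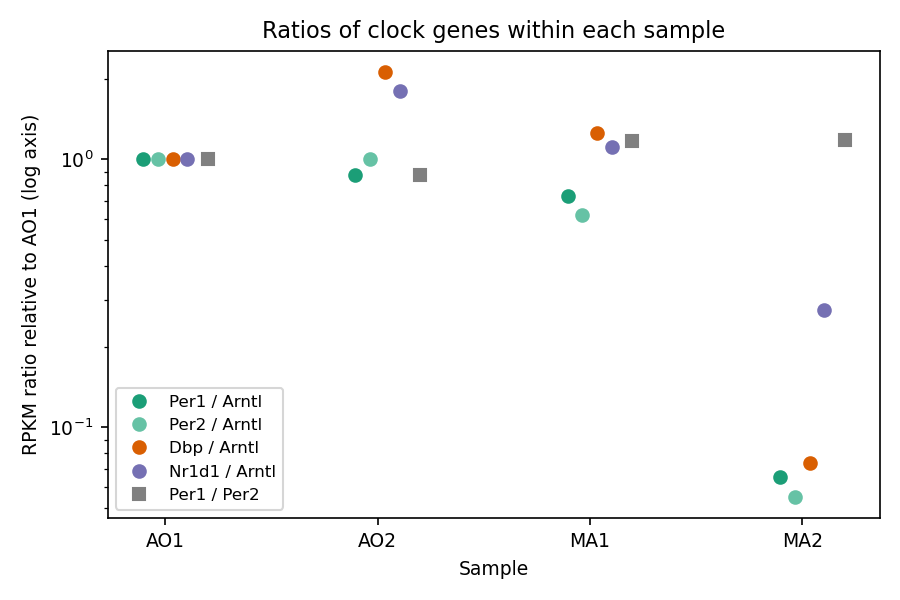
Ratio of RPKM of each clock gene to Arntl, and of Per1 to Per2, within each sample, drawn relative to AO1 (y axis, log scale). Points are samples; the 4 ratios to Arntl are lowest in MA2, where Per2 to Arntl is 3.45 against 62.7 in AO1, while Per1 to Per2 stays between 4.59 and 6.21.

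On scaled RPKM, the distances between samples over the 5 clock genes together did not follow the tissues. Taken singly, Arntl and Nr1d1 had both MA samples above both AO samples. Over the 5 genes the root mean square log2 difference of scaled RPKM was 0.46 between AO1 and MA1, which came from the same rat, 0.45 between AO2 and MA1, which did not, and 0.52 between AO1 and AO2. MA2 was 1.61 from AO1, 1.70 from AO2 and 1.54 from MA1. Arntl had the largest difference in each of these pairs with MA2. The median absolute log2 differences, on which 1 gene weighs less, were 1.35, 1.17 and 1.29 in the same order. For the other pairs the medians were 0.13 to 0.42. Over the same 13788 genes as above the order of the root mean square differences was another one. The smallest differences were those within a tissue, 0.57 between AO1 and AO2 and 0.66 between MA1 and MA2, and those across tissues ranged from 0.81 to 1.02. The distances over 5 genes are a description. With the RPKM as deposited AO1 and AO2 were the closest pair, at 0.53, and MA1 was 0.97 from AO1 and 0.84 from AO2. The nearness of MA1 to the AO samples therefore depended on the scaling. MA2 remained the farthest, at 1.56 to 1.72 from the others.

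**Figure D4:**
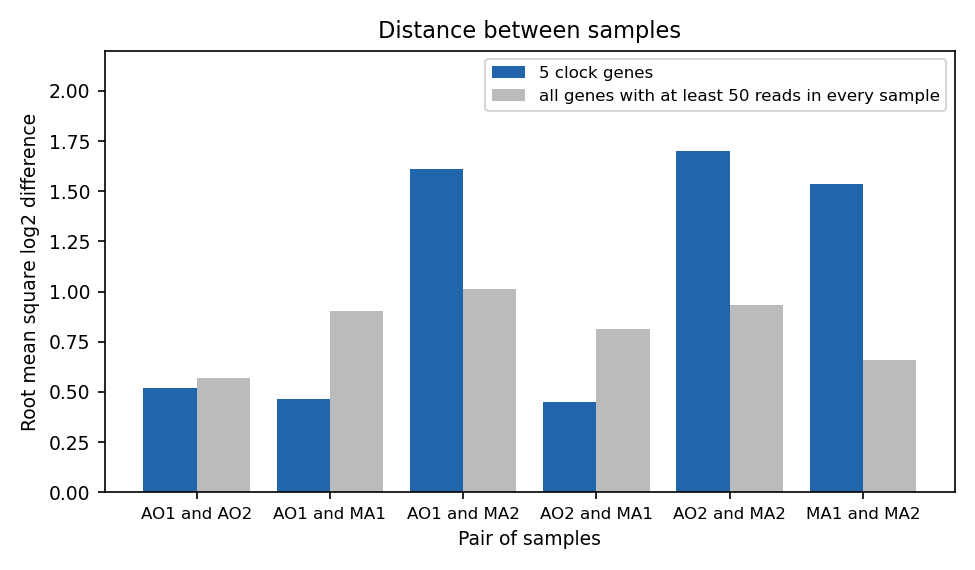
Root mean square log2 difference of scaled RPKM (y axis, from 0) for each pair of samples (x axis), over the 5 clock genes (blue) and over 13788 genes for which each sample had at least 50 reads (grey). The 3 pairs with MA2 reach 1.54 to 1.70 over the clock genes, while the other pairs lie between 0.45 and 0.52.

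The comparison that the study was designed for is MA against AO. It was made with limma on log2(scaled RPKM + 0.5) over the 7203 genes that reached 1 RPKM in 2 or more samples. A gene was called when its p, adjusted by Benjamini-Hochberg, was 0.05 or less and its difference more than 2-fold. Of the 5 clock genes 4 were tested and 0 were called, while 555 of the genes tested (7.71%) were called. At an unadjusted p under 0.05 the count of clock genes was also 0 of 4, beside 1824 of the 7203 genes tested. Arntl was below the limit on RPKM in every sample.

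Among the 4 tested, 3 were lower in MA, with a median log2 difference of MA minus AO of -0.42, beside 55.0% of genes lower in MA and a median of -0.05 over all genes tested. Dbp was at 25.1 ± 20.5 scaled RPKM in MA (SD, n = 2) and 30.9 ± 9.82 in AO (SD, n = 2). Its log2 difference was -0.54 (standard error 0.69, limma adjusted p = 0.701, 95% interval -2.39 to 1.32). For Per1 the difference was -0.36 (95% interval -1.63 to 0.91, limma adjusted p = 0.709) and for Per2 -0.48 (95% interval -1.35 to 0.39, limma adjusted p = 0.446). The intervals of these 3 genes include differences of more than 2-fold in at least 1 direction, so equal levels are not shown either.

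These differences rested on which MA sample was taken. Without MA2 the log2 difference of Dbp was 0.38 and that of Per1 0.22, both now above 0, and that of Per2 was -0.07 (limma adjusted p of 0.683, 0.808 and 0.926). Without MA1 they were -1.47 for Dbp, -0.95 for Per1 and -0.87 for Per2 (limma adjusted p of 0.126, 0.198 and 0.128). In that fit the 95% intervals of Dbp, -2.54 to -0.39, and of Per2, -1.52 to -0.22, did not include 0, and neither gene passed after adjustment. Leaving out 1 sample leaves 1 in its tissue, which is then taken to vary like the other tissue, and with any of the 4 samples left out 0 genes of all those tested were called.

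Nr1d1 varied least of the 5 between the MA samples, with 23.7 ± 1.99 scaled RPKM in MA (SD, n = 2) and 17.8 ± 3.65 in AO (SD, n = 2). Its log2 difference was 0.42 (standard error 0.22, limma adjusted p = 0.335, 95% interval -0.18 to 1.01). It was higher in MA under every setting tried for it. With the RPKM as deposited the difference was 0.90 (limma adjusted p = 0.0918), on a scale where the median gene lay 0.37 higher in MA.

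Arntl could be tested only with other filters. With none, its log2 difference of MA minus AO was 0.19 on the scale with the pseudocount (standard error 0.12, limma adjusted p = 0.565). With limma-voom on the solved reads, over the 18257 genes that had 10 or more in the 4 samples together, a setting chosen after seeing the data, its log2 difference of MA minus AO was 1.71 (standard error 1.02, 95% interval -0.97 to 4.38, limma adjusted p = 0.450). With this setting 383 genes (2.10%) were called and again 0 of the 5 clock genes. Its mean was 0.0988 ± 0.0897 scaled RPKM in MA (SD, n = 2) and 0.0235 ± 0.0049 in AO (SD, n = 2), so the SD in MA was almost as large as the mean.

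**Figure D5:**
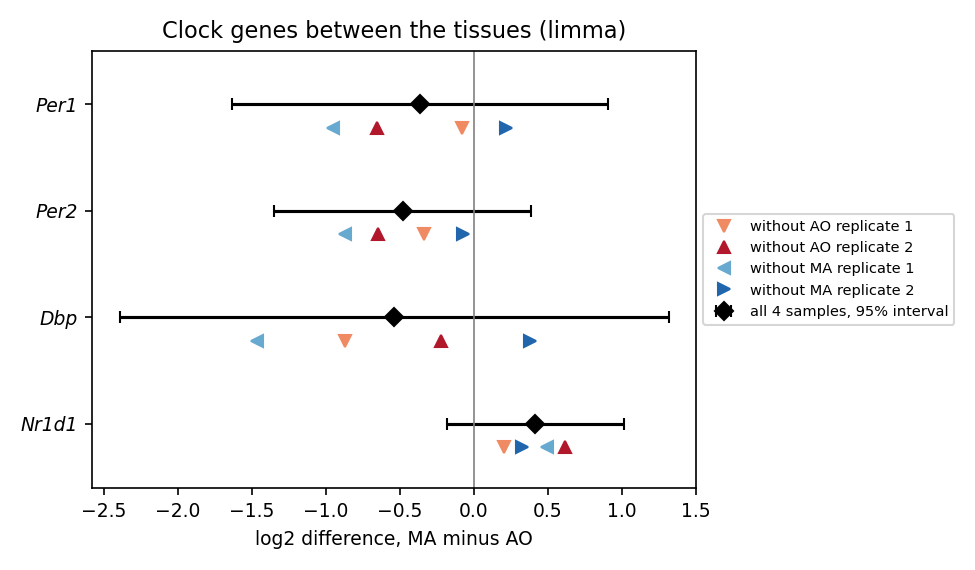
Log2 difference of MA minus AO (x axis) for the 4 clock genes tested with limma, as diamonds with 95% intervals, and the same with each of the 4 samples left out, as triangles. Each of the 4 intervals drawn, from the fit of all 4 samples, includes 0, and Dbp moves from -1.47 without MA replicate 1 to 0.38 without MA replicate 2.

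The genes most like Arntl and Nr1d1 in pattern were looked for by the Euclidean distance over the 4 centred sample values of log2(scaled RPKM + 0.5), among all genes tested. Nearest to Nr1d1 was ENSRNOG00000030902, at a distance of 0.055, with 12.8 and 17.4 scaled RPKM in the AO samples and 19.5 and 20.9 in the MA samples, the same order as Nr1d1. Nearest to Arntl was ENSRNOG00000009195, at 0.025, with 3.70 in both AO samples, 3.72 in MA1 and 4.78 in MA2. Arntl spans only 0.35 on this scale, so its likeness to a gene says little. A likeness over 4 samples is a description.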

How the data were processed

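RNA-Seq of 2 AO and 2 MA samples was used. The authors aligned paired-end reads to the Ensembl rat genome (Rnor5.72) with TopHat, discarded reads aligned to more than 2 locations, counted reads per gene, divided the counts by length and library size, and deposited RPKM, 1 list per sample. The version of TopHat is not given in the sources used here. The members and lists were chosen with earlier results of these data known.

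The steps between RPKM values (7 decimals) gave the whole reads, library sizes and lengths, found with numpy 2.4.6 and numba 0.67.0, and all 20747 genes above 0 were solved. Each sample's RPKM was scaled by its median-of-ratios factor (0.789 for AO1, 0.897 for AO2, 1.22 for MA1, 1.16 for MA2), and log2(scaled RPKM + 0.5) was tested with limma 3.58.1 in R 4.3.3 (eBayes with a trend, no block, Benjamini-Hochberg). A call also needed MA1 and MA2 to deviate in 1 direction from the mean of AO. The authors' DESeq test was not repeated; limma-voom on the solved reads was run as an alternative. Both steps, the solving of reads and the limma test, were run on simulated data. The first used the solved lengths, so it cannot show whether a solved length is too small by a whole factor. The second used a fixed spread between samples that was not estimated from these data. Alternatives covered the scaling, the pseudocount, the filter, the trend, the replicate block, limma-voom and leaving out each sample. Genes named are the 5 members and the nearest in pattern to Arntl and to Nr1d1. No table here pairs the identifiers with symbols, so lists of other clock genes and of cell type markers, set for this work, were not run. The samples of a tissue came from different rats.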

Additional observations from a re-analysis of the deposited data

How the results depend on the processing

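None of the clock genes was called between MA and AO under any of the settings tried. The log2 difference of Nr1d1 kept its sign under all 14 alternatives (0.21 to 0.90), as did that of Per2 (-0.87 to -0.07). That of Per1 turned to 0.10 with the RPKM as deposited and to 0.22 without MA2, and that of Dbp to 0.38 without MA2. Without each sample in turn Per1 ranged from -0.95 to 0.22 and Dbp from -1.47 to 0.38. The limma adjusted p over these alternatives was at least 0.0918 for Nr1d1, 0.126 for Dbp, 0.128 for Per2 and 0.198 for Per1. Of all genes tested, 555 were called, 67 higher in MA and 488 higher in AO. With a filter of 0.1 RPKM 368 were called, 39 higher in MA. With no filter 0 were called in either direction, although 3434 had an unadjusted p under 0.05, and without each sample in turn the counts were 0 to 0, with 1017 to 1685 at an unadjusted p under 0.05. The RPKM as deposited gave 170 higher in MA and 260 higher in AO, a pseudocount of 1 gave 43 higher in MA, and limma-voom with at least 10 reads gave 38. With the replicate block 107 were higher in MA. The numbers do not pair the samples, since only AO1 and MA1 share a rat. The main fit took all 4 samples as independent. Over the 7203 genes AO1 minus AO2 and MA1 minus MA2 had a correlation of 0.018. Whether the shared rat bears on the clock genes was not tested. The number of clock genes more than 2-fold apart between MA1 and MA2 was 2 with the pseudocount of 0.5 and 4 without one, which was not a planned setting. The mean log2 ratio of Nr1d1 to Arntl, MA minus AO, was 0.23 with the pseudocount of 0.5, -0.18 with 0.1 and -1.28 with none. For Arntl the pseudocount sets these values, since its RPKM are below it. Arntl rests on the fewest reads of the 5 genes, and only its difference between AO1 and AO2 was within counting error. This holds for the reads as solved, and double the reads would narrow that interval.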
